A study of Mus musculus with 8 samples.

Results

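Expression of 30 genes of cholesterol and fatty acid synthesis was compared between cxC26 scr tumors and cxC26 IL6KOs1 tumors. The genes were chosen by name for their place in these pathways and for the control of the pathways by SREBP. Earlier results of these data were known when they were chosen. All 30 were found by symbol among the 27179 genes of the table, and all 30 were among the 13262 genes with enough expression to be tested (at least 1 CPM, a read count scaled to library size, in 4 or more tumors). They comprise 7 genes of the mevalonate steps, 11 genes of the later sterol steps, 5 genes of SREBP control, the sterol transfer gene Stard4 and 6 genes of fatty acid synthesis. The tumors were subcutaneous C26 colon carcinomas in male CD2F1 mice, 4 of each kind, taken once the mice had cachexia, and measured by bulk RNA sequencing. The cxC26 scr cells are cachectic C26 cells with CRISPR/Cas9 and a scrambled guide RNA, and the cxC26 IL6KOs1 cells (IL-6 KO s1 in the plots) are a subclone of the same line in which the IL-6 gene was knocked out, also with CRISPR/Cas9. The knockout group is therefore 1 clone. In the study's experiments that followed both kinds of tumor to cachexia in CD2F1 mice, mice received more of the knockout cells. The knockout tumors also took longer to grow. Whether this held for the sequenced tumors was not stated. Effects of the knockout, the clone, the inoculum and tumor age cannot be told apart.

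The libraries held between 14158989 and 17048062 reads on genes in the cxC26 scr group and between 14222772 and 16232176 in the cxC26 IL6KOs1 group. Il6, the targeted gene, had 326 to 438 reads in the cxC26 scr tumors and 56 to 86 in the cxC26 IL6KOs1 tumors, and its log2 fold change was -2.45 (standard error 0.165, limma adjusted p = 1.76e-06). Of 5 epithelial markers, Epcam, Krt19 and Krt8 were near 0 in these carcinomas, with 6, 1 and 17 reads over the 4 cxC26 scr tumors and 30, 1 and 48 over the 4 cxC26 IL6KOs1 tumors. The other 2, Krt18 and Cdh1, had 98 and 100 reads over the scr tumors and 909 and 268 over the knockout tumors. The first cxC26 IL6KOs1 tumor stood apart from the other 3 on the second principal component of all tested genes (-39.6 against 14.1 to 15.4), which held 10.4% of the variance.

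Cholesterol is built from acetyl-CoA. The mevalonate steps turn it into farnesyl diphosphate, and the sterol steps join and fold this into lanosterol and trim lanosterol to cholesterol. Fatty acid synthesis draws on the same cytosolic acetyl-CoA. Both pathways are switched on by SREBP transcription factors, which Scap carries from the endoplasmic reticulum to the Golgi for cleavage when sterols are scarce and which the Insig proteins hold back when sterols are plentiful. Tumor cells and macrophages both use these pathways.

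The promoters of sterol enzymes are known for sterol regulatory elements, bound by SREBP, next to CCAAT boxes, bound by NF-Y. Promoters were read from RefSeq (GRCm38.p6) as the 300 bases from 250 before to 50 after the start of transcription, and 24 of the 30 genes had an entry. There was none for Fdps, Fdft1, Sqle, Stard4, Scd1 and Scd2. A gene was counted if any of its promoters held a motif. The letters CCAAT, searched on both strands, were present in 20 of the 24 genes (83.3%). They were present in 42.8% of the 10121 tested genes with an entry and 41.1% of all 27025 genes with an entry. Among the 15 cholesterol synthesis enzymes with an entry, 14 held these letters. The GC box GGGCGG, also searched on both strands, was present in 20 of the 24 genes (83.3%), against 68.1% of tested genes and 38.2% of all genes with an entry. A classical sterol regulatory element, TCACNCCAC, was present in 1 of the 24, Hmgcs1, against 1.35% of tested genes and 1.44% of all genes with an entry. These motifs can overlap one another only at their ends.

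The 3 genes with at least 4 matches to CCAAT in 300 bases were Hmgcs1 (4 matches), Mvk (5) and Nsdhl (4). All 3 were higher in the cxC26 IL6KOs1 tumors, where 13 of the 24 genes with an entry were. Of the genes with 3 matches, Msmo1 was higher, while Hsd17b7, Insig2 and Fasn did not pass the test. The 250 bases before each start are printed 5′ to 3′ along the gene's strand to show how closely the boxes are set, and capitals mark CCAAT or its reverse complement. The Hmgcs1 sequence is chr13:119690101-119690350 on the forward strand, that of Mvk chr5:114444019-114444268 on the forward strand and that of Nsdhl chrX:72918271-72918520 on the forward strand.
Hmgcs1: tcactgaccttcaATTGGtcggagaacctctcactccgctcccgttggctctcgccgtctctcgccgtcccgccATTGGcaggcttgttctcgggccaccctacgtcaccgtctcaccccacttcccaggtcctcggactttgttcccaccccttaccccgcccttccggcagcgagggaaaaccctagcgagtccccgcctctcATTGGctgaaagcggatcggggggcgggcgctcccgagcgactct
Mvk: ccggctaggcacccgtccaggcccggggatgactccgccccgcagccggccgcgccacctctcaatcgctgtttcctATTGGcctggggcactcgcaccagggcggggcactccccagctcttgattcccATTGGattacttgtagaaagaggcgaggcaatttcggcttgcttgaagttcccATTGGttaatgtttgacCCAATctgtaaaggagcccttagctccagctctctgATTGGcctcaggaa
Nsdhl: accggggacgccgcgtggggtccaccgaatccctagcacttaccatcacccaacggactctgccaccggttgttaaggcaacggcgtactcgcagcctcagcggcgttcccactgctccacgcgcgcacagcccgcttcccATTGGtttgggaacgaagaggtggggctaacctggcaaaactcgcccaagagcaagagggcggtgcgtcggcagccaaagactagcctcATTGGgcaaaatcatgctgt
Within these 250 bases Hmgcs1 held 3 boxes, the nearest starting 45 bases before the start and the farthest 237. Mvk held 5, from 14 to 173 bases before the start, and Nsdhl held 2, at 20 and 109 bases. The match of Hmgcs1 to the sterol regulatory element, in capitals below, began 137 bases before the start, between boxes, and is shown at chr13:119690204-119690232.
Hmgcs1 element: cgtcaccgtcTCACCCCACttcccaggtc
A match of letters was not tested as a binding site, and its part in the differences below was not tested.

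Most of the cholesterol synthesis enzymes were expressed more highly in the cxC26 IL6KOs1 tumors. At a limma adjusted p under 0.05, 19 of the 30 genes (63.3%) were higher, where 19.1% of all tested genes were, and 2 of the 30 (6.67%) were lower, where 20.7% of all tested genes were. The enzymes of cholesterol synthesis made up 15 of the 19, out of 18, and 0 of the 18 fell (0 also at an unadjusted limma p under 0.05). The others that rose were Insig1, Stard4, Scd1 and Scd2, and the 2 that fell were Scap and Acly. Over the 30 genes the log2 fold change had a median of 0.58, beside -0.0029 for all tested genes.

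The values of the groups did not overlap for 16 genes that were higher, against 17.8% of all tested genes, and for 3 that were lower (Scap, Acly and Acaca), against 19.3%. A rise of at least 2-fold with an adjusted p under 0.05 was found for 4 of the 30 genes (13.3%), namely Mvk, Pmvk, Fdps and Msmo1, against 6.25% of all tested genes. Since the tumors are mixtures, more expression per cell and more cells that express a gene cannot be told apart.

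**Figure D1:**
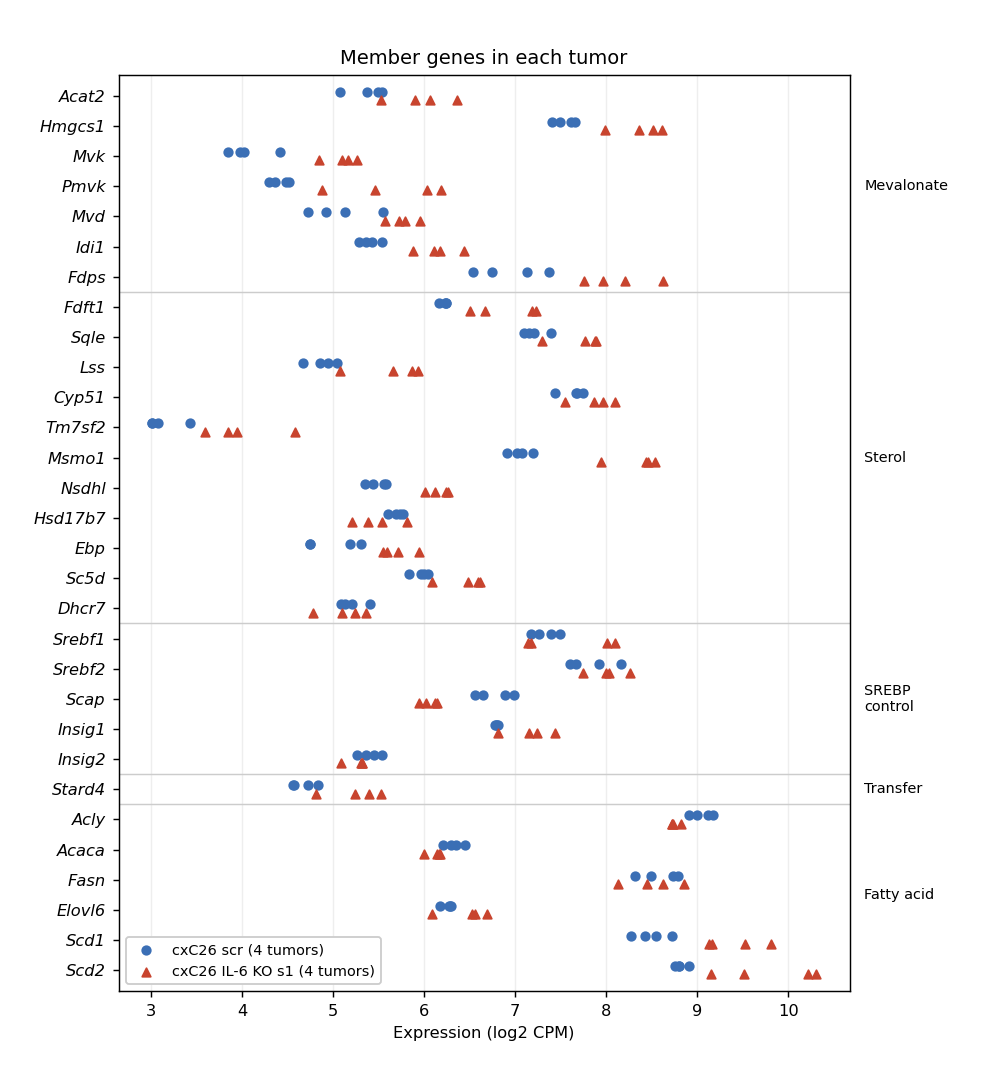
Expression of the 30 genes in each tumor, in log2 CPM on the horizontal axis, with cxC26 scr tumors as circles and cxC26 IL6KOs1 tumors as triangles, 4 of each. The triangles lie to the right of all circles for 6 of the 7 mevalonate genes and 7 of the 11 sterol genes, and to the left of all circles for Scap, Acly and Acaca.

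All 7 genes of the mevalonate steps rose, with log2 fold changes from 0.59 to 1.23 and a median of 0.83. Pmvk (phosphomevalonate kinase, chromosome 3 from 89454541 to 89469014) rose most. It stood at 4.48, 4.52, 4.36 and 4.30 log2 CPM in the 4 cxC26 scr tumors and at 6.03, 6.19, 4.88 and 5.46 in the 4 cxC26 IL6KOs1 tumors. The lowest knockout tumor was still above every scr tumor, but the knockout tumors were spread over a far wider range. The mean rose from 4.41 ± 0.10 to 5.64 ± 0.60 (SD, n = 4 each), a log2 fold change of 1.23 (standard error 0.232, limma adjusted p = 0.00159).

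Fdps, the farnesyl diphosphate synthase (chromosome 3 from 89093588 to 89101967), stood at 7.37, 7.13, 6.75 and 6.54 log2 CPM in the cxC26 scr tumors and at 8.21, 8.63, 7.76 and 7.96 in the cxC26 IL6KOs1 tumors. Both groups were spread by about the same amount and did not meet. The mean rose from 6.95 ± 0.37 to 8.14 ± 0.38 (SD, n = 4 each), by 1.19 on the log2 scale or 2.29-fold (standard error 0.201, limma adjusted p = 0.000816).

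Mvk, the mevalonate kinase (chromosome 5 from 114444264 to 114460591) whose CCAAT boxes are printed above, stood at 4.41, 4.03, 3.97 and 3.85 log2 CPM in the cxC26 scr tumors and at 5.26, 5.17, 4.85 and 5.10 in the cxC26 IL6KOs1 tumors. The first scr tumor was the highest of its group and still below all knockout tumors. The log2 fold change was 1.03 (standard error 0.139, limma adjusted p = 0.000208), or 2.04-fold.

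Hmgcs1, the cytosolic HMG-CoA synthase (chromosome 13 from 119690351 to 119708260), stood at 7.61, 7.66, 7.49 and 7.41 log2 CPM in the cxC26 scr tumors and at 8.36, 8.51, 7.99 and 8.62 in the cxC26 IL6KOs1 tumors. The third knockout tumor was again the lowest of its group and again above all scr tumors. The log2 fold change was 0.83 (standard error 0.127, limma adjusted p = 0.000456), or 1.77-fold. Idi1, the isopentenyl diphosphate isomerase, rose from 5.40 ± 0.10 to 6.15 ± 0.23 log2 CPM (SD, n = 4 each, limma adjusted p = 0.000476), and Mvd, the mevalonate diphosphate decarboxylase, from 5.08 ± 0.35 to 5.76 ± 0.16 (SD, n = 4 each, limma adjusted p = 0.00565).

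Acat2, which makes acetoacetyl-CoA at the entry to the pathway, rose least among the 7, by 0.59 (standard error 0.163, limma adjusted p = 0.0132). Its groups overlapped, since the lowest knockout tumor at 5.53 was under the highest scr tumor at 5.54 log2 CPM (two-sided exact permutation p = 0.0571). For the other 6 genes this p was 0.0286, the smallest that 4 tumors against 4 allow.

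Of the 11 genes of the sterol steps, 8 rose and 3 did not pass the test (Cyp51, Hsd17b7 and Dhcr7). Their median log2 fold change was 0.68. Msmo1, the methylsterol monooxygenase (chromosome 8 from 64718123 to 64733578), rose most of all 30 genes. It starts the removal of the methyl groups that are left after Cyp51 has acted on lanosterol. Its log2 CPM was 7.08, 7.20, 7.02 and 6.91 in the cxC26 scr tumors and 8.46, 8.54, 7.94 and 8.43 in the cxC26 IL6KOs1 tumors. The gap between the groups was wider than the spread within either of them. The mean rose from 7.05 ± 0.12 to 8.34 ± 0.27 (SD, n = 4 each), a log2 fold change of 1.29 (standard error 0.126, limma adjusted p = 2.2e-05) or 2.45-fold, which exceeded the log2 fold change of 96.0% of all tested genes.

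Nsdhl, the sterol dehydrogenase that acts after Msmo1 (chromosome X from 72918521 to 72958528), had the smallest standard error of the 19 genes that rose. It stood at 5.56, 5.58, 5.35 and 5.43 log2 CPM in the cxC26 scr tumors and at 6.12, 6.24, 6.01 and 6.26 in the cxC26 IL6KOs1 tumors. The range within each group was narrower than the gap between them, and the log2 fold change was 0.68 (standard error 0.0914, limma adjusted p = 0.000202). Hsd17b7, the ketosterol reductase that completes the same removal, did not pass the test. It stood at 5.69, 5.76, 5.60 and 5.73 log2 CPM in the cxC26 scr tumors and at 5.54, 5.38, 5.21 and 5.81 in the cxC26 IL6KOs1 tumors. The fourth knockout tumor was above every scr tumor while the other 3 were below, and the log2 fold change was -0.21 (standard error 0.121, limma adjusted p = 0.187). Without the fourth knockout tumor it was -0.32 (limma adjusted p = 0.0325). With any other tumor left out Hsd17b7 was not called (-0.24 to -0.12, limma adjusted p from 0.195 to 0.460).

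Fdft1, the squalene synthase at the branch from farnesyl diphosphate to sterols, lay between 6.17 and 6.24 log2 CPM in all 4 cxC26 scr tumors. In the cxC26 IL6KOs1 tumors it was at 7.22 and 7.19 in the first and the second and at 6.51 and 6.67 in the third and the fourth. The knockout tumors thus fell into a higher and a lower pair, both above the scr tumors, and the log2 fold change was 0.68 (standard error 0.147, limma adjusted p = 0.00377). Sqle, the squalene epoxidase, rose from 7.21 ± 0.13 to 7.71 ± 0.28 log2 CPM (SD, n = 4 each, limma adjusted p = 0.0100). In Sqle the third knockout tumor, at 7.30, was below the first scr tumor, at 7.39, so the groups overlapped (two-sided exact permutation p = 0.0571).

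Lss, the lanosterol synthase, rose by 0.75 (standard error 0.171, limma adjusted p = 0.00469), from 4.88 ± 0.16 to 5.63 ± 0.39 log2 CPM (SD, n = 4 each). Tm7sf2, a sterol reductase and the gene with the fewest reads of the 30, had 114 to 179 reads in the cxC26 scr tumors and 190 to 390 in the cxC26 IL6KOs1 tumors, and rose by 0.86 (standard error 0.201, limma adjusted p = 0.00566). Ebp, a sterol isomerase on chromosome X, rose by 0.70 (standard error 0.145, limma adjusted p = 0.00287) and Sc5d, a sterol desaturase, by 0.48 (standard error 0.116, limma adjusted p = 0.00644). The groups did not overlap in any of these 4 genes.

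Cyp51, the lanosterol demethylase, was the most highly expressed sterol gene per length of transcript in the scr tumors and did not pass the test. It stood at 7.75, 7.68, 7.66 and 7.44 log2 CPM in the cxC26 scr tumors and at 7.87, 7.96, 7.55 and 8.09 in the cxC26 IL6KOs1 tumors. All knockout tumors but the third were above all scr tumors, and the log2 fold change was 0.24 (standard error 0.117, limma adjusted p = 0.127). Without the third knockout tumor it was 0.34 (limma adjusted p = 0.0262). With any other tumor left out Cyp51 was not called (0.16 to 0.28, limma adjusted p from 0.106 to 0.311). Akap9 overlaps Cyp51 in the annotation and was itself lower, by -0.74 (limma adjusted p = 0.000854). Dhcr7, a reductase at the end of the pathway, was at 5.21 ± 0.14 log2 CPM in the cxC26 scr tumors and 5.12 ± 0.25 in the cxC26 IL6KOs1 tumors (SD, n = 4 each), a log2 fold change of -0.09 (standard error 0.131, limma adjusted p = 0.613). Its sign turned, to 0.02, without the third knockout tumor.

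Of the 5 genes of SREBP control 1 rose (Insig1), 1 fell (Scap) and 3 did not pass the test, shares of 20% each way beside 19.1% higher and 20.7% lower among all tested genes. Scap, the escort of SREBP (chromosome 9 from 110333288 to 110384949), stood at 6.99, 6.56, 6.89 and 6.64 log2 CPM in the cxC26 scr tumors and at 5.95, 6.14, 6.02 and 6.12 in the cxC26 IL6KOs1 tumors. Every knockout tumor was below every scr tumor. The mean went from 6.77 ± 0.20 to 6.06 ± 0.09 (SD, n = 4 each), a log2 fold change of -0.71 (standard error 0.104, limma adjusted p = 0.000341), so that expression was 61.0% of that in the scr tumors.

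Insig1, which is both an inhibitor of SREBP cleavage and a target of SREBP, lay between 6.78 and 6.81 log2 CPM in all 4 cxC26 scr tumors (SD 0.015). In the cxC26 IL6KOs1 tumors it was at 7.43, 7.24, 6.81 and 7.15. The third knockout tumor was level with the scr tumors, though just above them, and the log2 fold change was 0.36 (standard error 0.115, limma adjusted p = 0.0251). This call was lost when any 1 of 5 tumors was left out, which were the second, the third and the fourth scr tumors and the first and the second knockout tumors, with limma adjusted p-values of 0.0560, 0.0572, 0.0543, 0.0601 and 0.0585. Insig2, the related inhibitor, was at 5.40 ± 0.12 log2 CPM in the cxC26 scr tumors and 5.26 ± 0.11 in the cxC26 IL6KOs1 tumors (SD, n = 4 each, limma adjusted p = 0.265).

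Srebf1, the SREBP gene best known for fatty acid synthesis, stood at 7.50, 7.17, 7.39 and 7.27 log2 CPM in the cxC26 scr tumors and at 8.09, 8.01, 7.14 and 7.17 in the cxC26 IL6KOs1 tumors. The first and the second knockout tumors were above all scr tumors and the third and the fourth were below all of them. The log2 fold change was 0.27 (standard error 0.204, limma adjusted p = 0.311). Srebf2, the SREBP gene best known for cholesterol synthesis, was at 7.84 ± 0.25 log2 CPM in the cxC26 scr tumors and 8.01 ± 0.21 in the cxC26 IL6KOs1 tumors (SD, n = 4 each), with overlapping groups and a log2 fold change of 0.17 (standard error 0.137, limma adjusted p = 0.341). SREBP is regulated by cleavage as well as by its RNA, and cleavage was not measured.

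Stard4, a carrier of cholesterol between membranes, rose by 0.57 (standard error 0.146, limma adjusted p = 0.00894). It was at 4.57, 4.56, 4.84 and 4.72 log2 CPM in the cxC26 scr tumors and at 5.39, 5.24, 4.82 and 5.53 in the cxC26 IL6KOs1 tumors. The groups overlapped only through the third knockout tumor, which was below the third scr tumor (two-sided exact permutation p = 0.0571).

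The 6 genes of fatty acid synthesis moved in different directions. The stearoyl-CoA desaturases Scd1 and Scd2, which place a double bond in saturated fatty acids, rose. Acly, which makes cytosolic acetyl-CoA from citrate, fell, and Acaca, Fasn and Elovl6, which build and lengthen the chain, did not pass the test. Their median log2 fold change was 0.07.

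Scd1 (chromosome 19 from 44394450 to 44407709) stood at 8.73, 8.55, 8.28 and 8.42 log2 CPM in the cxC26 scr tumors and at 9.53, 9.81, 9.16 and 9.13 in the cxC26 IL6KOs1 tumors. The groups did not meet, and the log2 fold change was 0.92 (standard error 0.154, limma adjusted p = 0.000783). Scd2, its neighbor on chromosome 19 from 44293676 to 44306864, lay between 8.76 and 8.91 log2 CPM in the cxC26 scr tumors and was at 10.22, 10.31, 9.15 and 9.52 in the cxC26 IL6KOs1 tumors. As in Srebf1 and Fdft1, the first and the second knockout tumors were well above the third and the fourth. The log2 fold change of Scd2 was 0.99 (standard error 0.216, limma adjusted p = 0.00393).

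Acly (chromosome 11 from 100476352 to 100528000) stood at 9.17, 8.91, 9.12 and 9.0 log2 CPM in the cxC26 scr tumors and at 8.72, 8.83, 8.73 and 8.72 in the cxC26 IL6KOs1 tumors. The groups did not meet, but the difference was small, at -0.30 on the log2 scale (standard error 0.0861, limma adjusted p = 0.0167). Without the third scr tumor it was -0.27 and the call was lost (limma adjusted p = 0.0539). Acaca, the acetyl-CoA carboxylase, was likewise lower in every knockout tumor (6.0 to 6.17 against 6.21 to 6.45 log2 CPM), by -0.21 (standard error 0.0826), and missed the threshold with a limma adjusted p of 0.0625. Fasn, the fatty acid synthase, ranged from 8.32 to 8.79 log2 CPM in the cxC26 scr tumors and from 8.13 to 8.85 in the cxC26 IL6KOs1 tumors. Its log2 fold change was -0.07 (standard error 0.151, limma adjusted p = 0.751). Its sign turned without the third knockout tumor, to 0.06, and without the third scr tumor, to 0.0015. Elovl6, an elongase, was above all scr tumors in every knockout tumor but the third (6.69, 6.56, 6.09 and 6.53 against 6.18 to 6.30 log2 CPM). Its log2 fold change was 0.21 (standard error 0.117, limma adjusted p = 0.178), and without the third knockout tumor 0.33 (limma adjusted p = 0.0148). With any other tumor left out Elovl6 was not called.

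Measured as CPM per kilobase of the longest annotated transcript, Acly had the highest level of the 30 genes in the cxC26 scr tumors, at 120, followed by Scd2 (82.6), Scd1 (75.0), Hmgcs1 (53.9) and Cyp51 (50.6). In the cxC26 IL6KOs1 tumors the order was Scd2 (173), Scd1 (143), Msmo1 (111), Fdps (98.0), Acly (97.3) and Hmgcs1 (96.7), where the last 3 lay close together. Tm7sf2 was the lowest in both groups, at 2.86 and 5.34. These are levels from the mean CPM of each group, with no test between genes.

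Many genes of the same chromosome shifted together in these tumors, so the difference of each of the 30 genes was also read against the chromosome it lies on. Tested genes were shifted down on chromosome 1 (median log2 fold change -0.34), chromosome 5 (-0.24), chromosome 7 (-0.27) and chromosome 11 (-0.15). They were shifted up on chromosome 3 (0.18), chromosome 10 (0.32) and chromosome 19 (0.33), and by less on chromosome 14 (0.11), chromosome 15 (0.14) and chromosome 16 (0.17). After the median of its chromosome was removed from each gene, the 30 genes had a median of 0.55, 18 were higher (16.7% of all tested genes were) and 1 was lower (16.3%). The 4 genes that rose at least 2-fold stayed at 1.01 or more, with Msmo1 at 1.24, Mvk at 1.26, Pmvk at 1.05 and Fdps at 1.01.

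This removal changed 4 calls among the 30 genes. Lss, on chromosome 10, went to 0.43 (limma adjusted p = 0.0677) and Tm7sf2, on chromosome 19, to 0.53 (limma adjusted p = 0.0576), and neither was called any longer. Acly, on chromosome 11, went to -0.15 (limma adjusted p = 0.177). Cyp51, on chromosome 5, went to 0.47 and was then called higher (limma adjusted p = 0.00850). Scd1 and Scd2, on chromosome 19, stayed called at 0.59 and 0.66 (limma adjusted p = 0.0101 and 0.0343), and Sqle, on chromosome 15, at 0.37 (limma adjusted p = 0.0426). Hsd17b7 and Insig2, on chromosome 1, Dhcr7, on chromosome 7, and Fasn, on chromosome 11, turned from below 0 to 0.11, 0.18, 0.18 and 0.08, without passing the test in either form. The part of these chromosome shifts in the calls cannot be told apart from the group, since all 4 knockout tumors came from 1 clone.

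**Figure D2:**
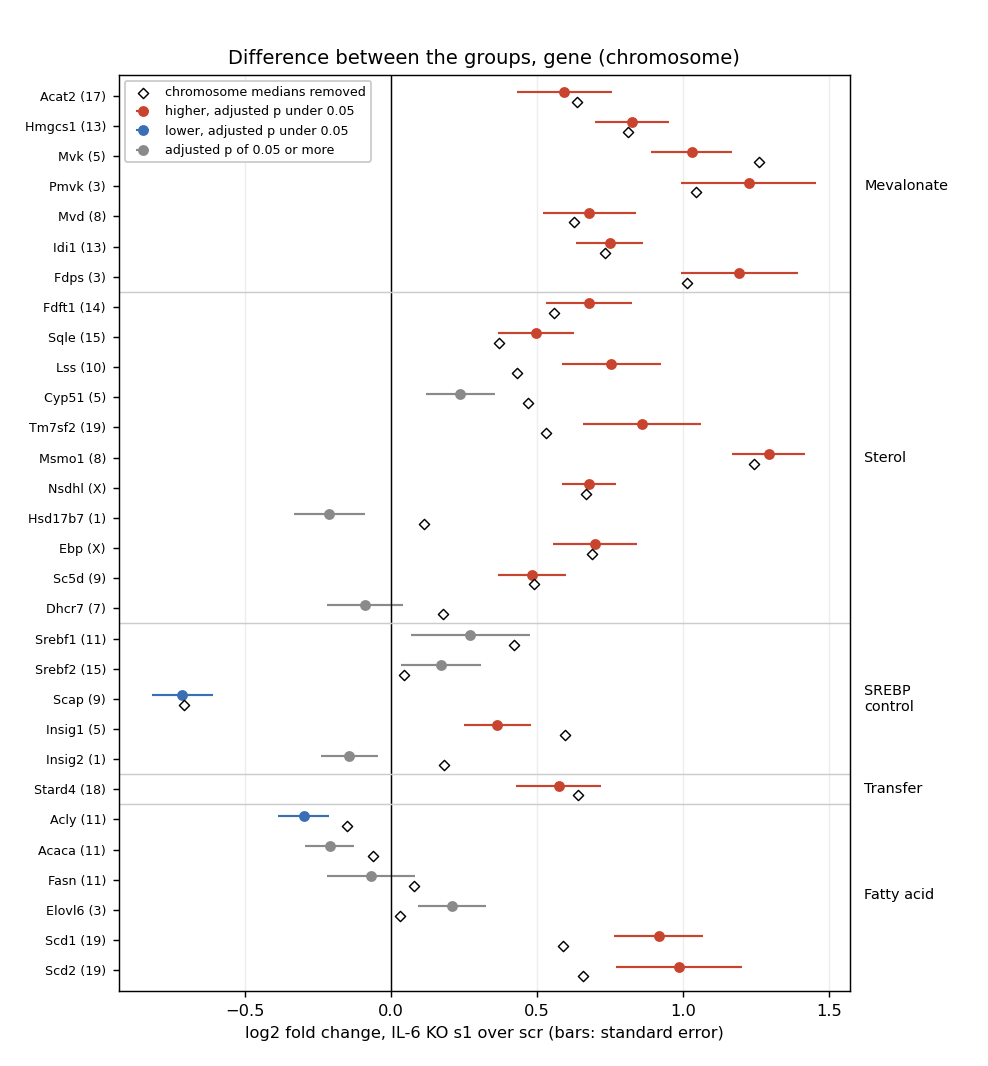
Log2 fold change of each gene, cxC26 IL6KOs1 over cxC26 scr, with standard errors as bars and the chromosome in parentheses. Circles are colored by call and open diamonds show the same difference after the chromosome medians were removed, where the 7 mevalonate genes stay to the right of 0 while Hsd17b7, Dhcr7, Insig2 and Fasn cross it.

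The knockout tumors differed among themselves in these genes. The third cxC26 IL6KOs1 tumor was the lowest of its group in 25 of the 30 genes (83.3%), where it was the lowest in 20.6% of all tested genes, and in 17 of the 19 genes that rose. Its median deviation from the group mean over the 19 genes was -0.38 log2 CPM, against 0.15 in the first and in the second tumor and -0.0047 in the fourth. It was still above all scr tumors in most of the called genes, with Acat2, Sqle and Stard4 as the exceptions.

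In the scr group the fourth tumor was the lowest in 17 of the 30 genes (56.7%, against 20.3% of all tested genes) and the first was the highest in 18 (60.0%, against 33.4%). Their deviations were smaller, with medians of -0.12 and 0.08 log2 CPM over the 19 genes that rose. The SD within the group was larger in the cxC26 IL6KOs1 tumors for 22 of the 30 genes (73.3%), against 54.6% of all tested genes, with a median SD of 0.26 against 0.13 in the scr tumors. Without the third knockout tumor 21 of the 30 genes were higher, since Cyp51 and Elovl6 joined the 19.

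**Figure D3:**
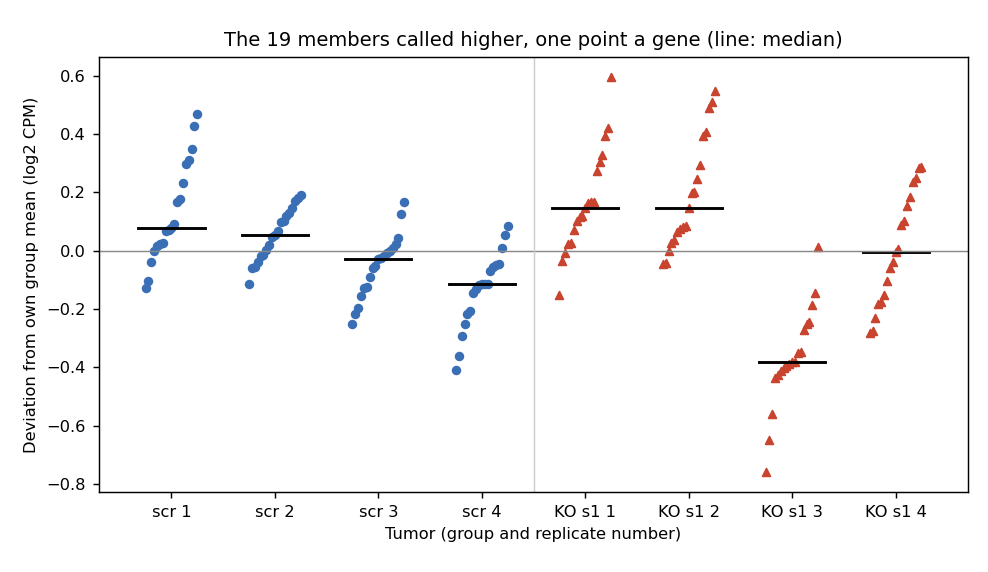
Deviation of each tumor from the mean of its own group, in log2 CPM, for the 19 genes called higher, with 1 point a gene (ordered by value within a tumor) and the median as a line. The median of the third knockout tumor is -0.38, and the medians of the other 7 tumors lie between -0.12 and 0.15.

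Summed over the 7 mevalonate genes, expression was 396 to 534 CPM in the cxC26 scr tumors and 681 to 1084 in the cxC26 IL6KOs1 tumors, and over the 11 sterol genes it was 762 to 875 and 977 to 1358. The third knockout tumor gave the lower end in both. The 6 fatty acid genes summed to 1773 to 2065 CPM and 1978 to 3138, where the third knockout tumor, at 1978, was below the first scr tumor, at 2065. The 5 genes of SREBP control summed to 593 to 744 CPM and 572 to 849.

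Some markers of cell types, tumor cells included, moved between the same groups. All 6 macrophage markers rose, from a summed 415 to 586 CPM in the scr tumors to 823 to 1273 in the knockout tumors, and all 4 pan-leukocyte markers rose, from 147 to 176 CPM to 247 to 511. Of the macrophage markers Mrc1 only just passed (limma adjusted p = 0.0499), and its groups overlapped (two-sided exact permutation p = 0.114). The third knockout tumor, lowest in the sterol genes, had the second highest macrophage sum of its group, at 911 CPM. Of the 6 adipocyte markers tested of 7, 0 were called at the limma threshold (0 at an unadjusted p under 0.05), with sums of 143 to 209 CPM and 125 to 248, the highest being that of the third knockout tumor. Cfd was lower with the chromosome medians removed (-0.69, limma adjusted p = 0.0420). Of the epithelial markers, chosen for the tumor cells, 2 of 5 were tested and both rose, Krt18 by 3.20 and Cdh1 by 1.46. The 5 summed to 14.3 to 26.6 CPM in the knockout tumors, from 2.96 to 4.85 in the scr tumors.

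Of 5 fibroblast markers Lum rose and Pdgfra fell, of 5 endothelial markers Vwf fell, of 3 tested neutrophil markers S100a8 rose, and of 6 skeletal muscle markers Myh1 rose, where the muscle sum varied from 8.19 to 156 CPM in the scr tumors and from 22.8 to 322 in the knockout tumors. The 1 keratinocyte marker tested of 5, Krt10, was not called. The part of these cells in the differences of the 30 genes was not tested.

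**Figure D4:**
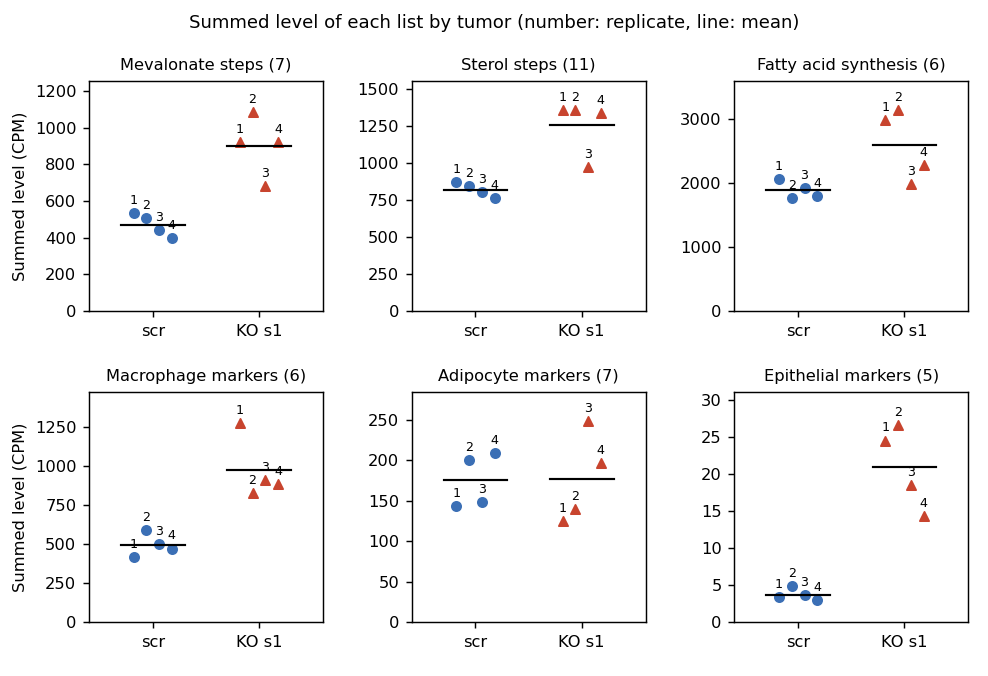
Summed expression of 3 groups of the pathway genes and of 3 lists of cell markers in each tumor, in CPM, with the replicate number at each point and the group mean as a line. The groups do not overlap for the mevalonate, sterol, macrophage and epithelial sums, and they overlap for fatty acid synthesis and adipocytes.

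Other lists of the pathways are given with their counts, to be read beside 19.1% higher and 20.7% lower among all tested genes. With the chromosome medians removed these shares were 16.7% and 16.3%. Of 17 further genes of fatty acid synthesis and desaturation 14 were tested, of which 9 rose and 0 fell at the limma threshold (0 also at an unadjusted p under 0.05). Scd3, 1 of the 9, had 11 to 17 reads a tumor in the cxC26 scr group and 19 to 36 in the cxC26 IL6KOs1 group. It met the expression filter only through the knockout tumors. With the chromosome medians removed Scd3 was not called (0.55, limma adjusted p = 0.201). Me1, the malic enzyme that supplies NADPH, rose by 1.51 (standard error 0.192, limma adjusted p = 0.000142), and Scd4, another desaturase, by 1.30 (standard error 0.311, limma adjusted p = 0.00639). Scd4 also had few reads, 17 to 30 a tumor in the cxC26 scr group and 41 to 106 in the cxC26 IL6KOs1 group. Its first knockout tumor was at 2.71 log2 CPM, against 1.52 to 1.72 in the others. With the chromosome medians removed Scd4 was at 0.97 (limma adjusted p = 0.0321). Fads1 and Mid1ip1 had the highest mean log2 CPM of that list and rose by 0.40 and 0.38 (limma adjusted p = 0.0318 and 0.0112). After removal of the chromosome medians 6 of the 14 were higher, and Fads1, on chromosome 19, was at 0.07 (limma adjusted p = 0.698).

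Of 8 genes of SREBP cleavage and sterol sensing, 1 rose and 1 fell (12.5% each), beside 19.1% higher and 20.7% lower among all tested genes. The same counts were found with the chromosome medians removed. Erlin1, a regulator of sterol sensing in the endoplasmic reticulum, rose by 0.93 (standard error 0.102, limma adjusted p = 5.41e-05) and by 0.60 with the chromosome medians removed, and Mbtps1, the protease that makes the first cut in SREBP, fell by 0.29 on the log2 scale (standard error 0.0841, limma adjusted p = 0.0164). Pgrmc1, the most highly expressed of that list in log2 CPM, was at 8.63 ± 0.07 and 8.77 ± 0.22 (SD, n = 4 each, limma adjusted p = 0.311).

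Of 10 genes of the isoprenoid branch, which uses farnesyl diphosphate for other products than sterols, 5 rose and 2 fell, and with the chromosome medians removed 2 were higher and 1 was lower. Ggps1, the geranylgeranyl diphosphate synthase that takes up the product of Fdps, fell by 0.53 on the log2 scale (standard error 0.126, limma adjusted p = 0.00638) while Fdps rose. Pdss2, of the ubiquinone side chain, rose by 0.66 (limma adjusted p = 0.0286), and Rabggtb and Nus1, the 2 highest in log2 CPM, by 0.36 and 0.47 (limma adjusted p = 0.00470 and 0.00142). These 3 were no longer called with the chromosome medians removed, with Pdss2 at 0.34 (limma adjusted p = 0.246), Rabggtb at 0.18 (0.0740) and Nus1 at 0.15 (0.193).

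Genes that respond to or remove sterol were mixed. Of 6 tested genes of LXR and cholesterol efflux, Nr1h3 (LXR alpha) rose by 0.61 (limma adjusted p = 0.0342) and Nr1h2 (LXR beta) had a difference of -0.25 (limma adjusted p = 0.0433), while Abca1, the main efflux pump, was at 8.02 ± 0.23 and 8.07 ± 0.54 log2 CPM (SD, n = 4 each, limma adjusted p = 0.875). With the chromosome medians removed Nr1h2, on chromosome 7, was at 0.02 (limma adjusted p = 0.870), and Nr1h3 stayed called. Of 8 genes of sterol storage and oxysterols 4 rose and 2 fell, and with the chromosome medians removed 1 was higher (Ch25h) and 2 were lower. Ch25h, which makes an oxysterol that represses SREBP, rose by 1.84 (standard error 0.218, limma adjusted p = 9.07e-05), and Cyp46a1, another oxysterol enzyme, fell by 1.41 on the log2 scale (standard error 0.241, limma adjusted p = 0.000868). Soat1, which esterifies cholesterol for storage, fell by 0.60 on the log2 scale (limma adjusted p = 0.000380), and by 0.27 with the chromosome medians removed (limma adjusted p = 0.0381). Lipa, which frees cholesterol in lysosomes and lies on chromosome 19, had a difference of 0.26 (limma adjusted p = 0.0287) that turned to -0.07 with the chromosome medians removed (limma adjusted p = 0.495).

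Of 7 tested genes of triglyceride synthesis 3 rose and 1 fell, with Agpat2 at 0.66 (limma adjusted p = 0.00158), Lpin3 at -0.57 (limma adjusted p = 0.0182), and Agpat3 and Lpin2, the 2 highest in log2 CPM, at 0.34 and 0.21 (limma adjusted p = 0.0160 and 0.166). With the chromosome medians removed 1 was higher (Agpat2) and 1 lower (Lpin3), and Agpat3, on chromosome 10, was at 0.02 (limma adjusted p = 0.886). Of 9 tested genes of fatty acid oxidation, the opposing pathway, 1 rose and 4 fell, and with the chromosome medians removed the rise was lost and 3 were lower. Hadha and Acadl, both of the oxidation cycle in mitochondria, fell by 0.64 and 0.53 on the log2 scale (limma adjusted p = 0.000147 and 0.00229). After the same removal Hadha fell by 0.41 (limma adjusted p = 0.00236), while Acadl, on chromosome 1, was at -0.21 and no longer called (limma adjusted p = 0.161). The log2 fold change had a median of 0.42 over the further fatty acid synthesis genes and of -0.23 over the oxidation genes, and less the chromosome medians of 0.34 and -0.15.

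The counting of reads can limit some of these values. The span of another annotated gene, introns included, overlaps that of 16 of the 30 genes, and the library kit does not mark strand. Reads in exons that overlap could not be assigned, and whether exons overlap was not examined. For Srebf1 that gene is Rai1, which was lower by -0.55 (limma adjusted p = 0.00508), for Tm7sf2 it is Vps51, which was higher by 0.46 (limma adjusted p = 0.00125), and for Fdft1 it is Ctsb, with a difference of 0.15 (limma adjusted p = 0.357). Of the 100-base words of the transcripts, 42.8% were shared with another gene for Acaca, 35.3% for Acat2, 20% for Idi1 and 6.69% for Fdps, and at most 2.78% for each of the other 26 genes. Acat3, which shares the words of Acat2, had 9 to 43 reads a tumor, against 519 or more for Acat2.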

How the data were processed

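Bulk RNA of 8 tumors was sequenced, 4 a group, and groups and replicate numbers came from the sample titles. Per the paper's methods the authors trimmed reads with Trimmomatic, aligned them with Hisat2 to mm10, counted reads per gene with featureCounts and normalized the counts with limma-voom. The labels name bcl2fastq 2.17. The strand setting, the annotation of genes and other versions are not given in the sources used here. The deposited values are log2 CPM, unfiltered, in which every value came back to a whole read count (100%) once voom's offsets (0.5 reads, and 1 read of library size) were undone. Depth was 14158989 to 17048062 reads a tumor, which limits the precision of low genes.

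The 30 genes and all lists were chosen with earlier results of these data known. R 4.3.3 and limma 3.58.1 (lmFit, eBayes with a mean-variance trend, no covariates) were run on the 13262 genes with at least 1 CPM in 4 or more tumors, with Benjamini-Hochberg adjustment over all of them and a threshold of 0.05. A fold change is the difference of mean log2 CPM, cxC26 IL6KOs1 minus cxC26 scr. Single genes were also compared by a two-sided exact permutation test over the splits of the tumors into 4 and 4. All 30 genes are named. Scd3 is named for its few reads, and cell markers are given by counts and sums. From each other pathway list the up to 2 genes of highest mean log2 CPM and the up to 2 called genes of largest change are named. A gene chosen by this rule is not reported here. Nothing says that tumors of the same number share a mouse, litter or day, and the deviations of same-numbered tumors were correlated by -0.0593, 0.0571, 0.0171 and -0.0587, so the numbers were not taken as pairs. Promoters and coordinates came from RefSeq (GRCm38.p6) and transcript lengths from the longest GENCODE M21 transcript. The fit was tested on simulated data. Alternatives were no filter, a filter at a mean of 3 log2 CPM, quantile normalization, median centring, no trend, voom weights, a pseudocount of 1 CPM, a replicate block, each tumor left out, removal of chromosome medians (12982 genes on chromosomes with at least 25 tested genes) and a 2-fold threshold.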

Additional observations from a re-analysis of the deposited data

Results flagged for a closer look

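The highest and lowest tumor of each group were compared with the rest of the group for the 30 genes, by the gap to the nearest tumor over the range of the group (Dixon's test). Of 60 groups of 4 tumors, 3 had such a tumor, and about 3 are given by chance. Tm7sf2 was at 3.43 log2 CPM in the first cxC26 scr tumor, against 3.01 to 3.08 in the other scr tumors. Insig2 was at 5.09 in the first cxC26 IL6KOs1 tumor, against 5.31 to 5.32 in the others of its group. Acly was at 8.83 in the second cxC26 IL6KOs1 tumor, against 8.72 to 8.73.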

How the results depend on the processing

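Across the alternatives without a 2-fold threshold, 18 to 21 of the 30 genes were higher. In all 17 alternatives 16 of the 19 higher genes, 1 of the 2 lower genes (Scap) and 3 of the 9 others kept their call and direction. The number of lower genes was 1 with no filter and 1 with the chromosome medians removed, and between 1 and 3 with each tumor left out. A 2-fold threshold left 4 higher and 0 lower genes of the 30, and 829 higher and 521 lower genes of all tested, since it is stricter by construction. With the replicate number as a block (replicate block), 19 and 2 of the 30 genes and 2477 and 2688 of all tested genes were called, and no call of the 30 genes changed.

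With the chromosome medians removed the log2 fold change turned positive for Hsd17b7 (0.11), Dhcr7 (0.18), Insig2 (0.18) and Fasn (0.081). With each tumor left out it lay between -0.172 and 0.024 for Dhcr7 and between -0.179 and 0.059 for Fasn. Insig1 lost its call in 7 alternatives, with a limma adjusted p of up to 0.0714 (no filter) and of 0.0540 without the trend, and Acly in 3, the third being no filter (limma adjusted p = 0.0510). The cause of these changes was not tested. Depth limits Tm7sf2 most, with 114 reads in its lowest tumor. Cell composition, protein and sterol levels were not measured here.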
